A study of Drosophila melanogaster with 2 samples.

Results

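The genes that encode RNA polymerase II, the general transcription factors TFIID and TFIIH, and the Mediator complex of Drosophila melanogaster were examined for binding of the CG17612 protein at their start sites. The set was chosen by gene symbol from the protein-coding genes of the Ensembl BDGP6 annotation. It took symbols that start with Polr2, with Taf or MED followed by a digit, or with TfII, together with Tbp, Ssl1, hay, Xpd, skd, kto, Cdk8 and CycC. This gave 70 of 13968 protein-coding genes. There were 13 genes of RNA polymerase II, 16 of TFIID, 3 of TFIIH, 25 of Mediator and 4 of its kinase module, and 9 further general factor genes whose symbols start with TfII. The symbols also bring in genes at the edge of these complexes, such as Taf12L and TfIIA-S-2, named as relatives of other members, and the elongation factor gene TfIIS.

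The assay was ChIP-seq (chromatin immunoprecipitation followed by sequencing), which recovers the DNA fragments attached to a protein and maps them to the genome. The samples were 2 biological replicates of 1 group, whole embryos aged 0 to 24 hours of the strain CG17612-GFP, in which CG17612 is fused to the green fluorescent protein eGFP. The pull-down used an antibody against GFP, although the antibody label names CG17612 itself. All tissues and stages of the collection are mixed in each sample, and no promoter for the fusion is named in the labels. The control experiment named in the labels was not analysed here, and with 1 group there was no condition to compare.

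RNA polymerase II transcribes protein-coding genes. TFIID, made of the TATA-binding protein Tbp and its associated factors (Taf), recognises core promoters, and TFIIH opens the DNA at the start site. Mediator passes signals from bound regulators to the polymerase, through head, middle and tail modules and a detachable kinase module. In the compact fly genome many such housekeeping genes lie head to head with a neighbour, so that genes on opposite strands are transcribed away from a shared promoter.

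A gene counted as bound when a summit, the highest point of a peak, lay within 500 bp of any of its annotated start sites. The peaks were those of the authors' conservative pooled list, which keeps peaks that the replicates share according to the irreproducible discovery rate (IDR). It held 2042 peaks on the chromosome arms. To show what lay under the summits, 8 windows of up to 50 bp on each side of a summit are printed here, on the dm6 build and from the Release 6 genome. They belong to the bound members with the highest scores whose windows have at least 50 bases outside annotated untranslated regions, except Taf5, which is not shown, and they were trimmed to those bases. Each runs 5′ to 3′ on the strand of the named gene, and capitals mark unbroken runs of at least 8 A or T bases. The sequences at Polr2B (3R:14125613-14125713, plus strand), MED30 (3L:654232-654332, minus strand) and MED17 (3R:18188947-18189047, plus strand) were as follows.
Polr2B: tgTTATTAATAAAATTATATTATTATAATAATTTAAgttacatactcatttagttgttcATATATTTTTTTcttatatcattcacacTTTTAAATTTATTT
MED30: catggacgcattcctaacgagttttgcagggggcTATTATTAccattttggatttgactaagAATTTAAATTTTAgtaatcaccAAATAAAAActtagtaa
MED17: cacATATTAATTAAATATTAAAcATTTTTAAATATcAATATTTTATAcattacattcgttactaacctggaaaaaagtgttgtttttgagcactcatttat
Those at MED27 (3R:5654916-5655016, plus strand), Polr2F (3R:5371745-5371794, plus strand) and MED7 (3R:10761033-10761130, minus strand) follow. The Polr2F stretch ends at the base before its start site.
MED27: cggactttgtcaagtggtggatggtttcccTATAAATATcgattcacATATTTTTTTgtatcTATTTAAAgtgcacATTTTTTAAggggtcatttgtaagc
Polr2F: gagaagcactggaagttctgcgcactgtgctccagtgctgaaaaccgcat
MED7: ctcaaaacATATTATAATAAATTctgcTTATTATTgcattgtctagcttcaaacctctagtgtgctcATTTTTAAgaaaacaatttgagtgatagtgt
The last pair were at MED31 (3R:4641707-4641795, plus strand) and Polr2J (2L:17410493-17410593, minus strand).
MED31: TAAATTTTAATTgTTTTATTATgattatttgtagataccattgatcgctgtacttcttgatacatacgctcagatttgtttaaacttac
Polr2J: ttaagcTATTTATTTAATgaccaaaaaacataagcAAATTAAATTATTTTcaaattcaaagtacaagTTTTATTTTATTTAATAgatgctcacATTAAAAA
Of these 8 windows 7 hold at least 2 such A and T runs, and the shorter stretch at Polr2F holds none.

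CG17612 was bound at 14 of the 70 members (20%, 95% Wilson interval 12.3 to 30.8), against 8.69% of all protein-coding genes (1214 of 13968). The 14 members had 14 separate peaks. Intervals cover counting error only, and members are not replicates of each other. The polymerase had Polr2B, Polr2F, Polr2H and Polr2J bound, which is 4 of 13 genes (30.8%, 12.7 to 57.6). TFIID had Taf2, Taf4 and Taf5, 3 of 16 (18.8%, 6.59 to 43). Of the 3 TFIIH genes only Ssl1 was bound (33.3%, 6.15 to 79.2). Mediator had MED7, MED17, MED27, MED30 and MED31, 5 of 25 (20%, 8.86 to 39.1), and its kinase module had skd, 1 of 4 (25%, 4.56 to 69.9). None of the 9 other general factor genes was bound (0%, 0 to 29.9). Here and below a count of 0 is also given a limit of 3 counts, a rougher bound than the Wilson interval, which allows up to 33.3%. The intervals of the complexes overlap each other throughout.

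**Figure D1:**
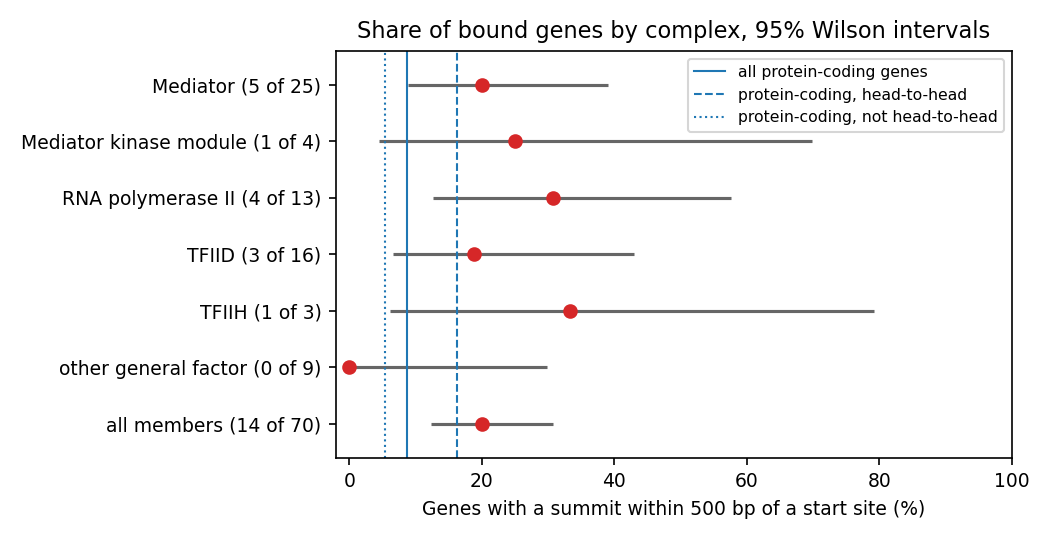
Percentage of bound genes in each complex (points) with 95% Wilson intervals (lines), and the shares of all protein-coding genes (8.69%), of those with a head-to-head partner (16.3%) and of those without one (5.47%) as vertical lines. All complexes except the other general factors lie above the share of all protein-coding genes, among them the polymerase (30.8%) and Mediator (20%). Every complex has a wide interval. Those of TFIID, TFIIH, the kinase module and the other general factors contain 8.69%, and those of all the complexes contain 16.3%.

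Bound members were mostly genes with a shared promoter, as were bound genes in general to a lesser share. A gene on the other strand started within 500 bp of the summit at 12 of 14 bound members (85.7%). The share was 54.9% of all bound protein-coding genes (666 of 1214). A head-to-head partner, meaning a gene on the opposite strand that starts within 500 bp upstream and is transcribed away, was present at 44 of the 70 members (62.9%, Wilson interval 51.1 to 73.2) and at 29.6% of all protein-coding genes (4135 of 13968). Of those 44 members 12 were bound (27.3%, 16.3 to 41.8), against 16.3% of all protein-coding genes with such a partner (676 of 4135). Of the 26 members without one, 2 were bound (7.69%, 2.14 to 24.1), against 5.47% of such protein-coding genes (538 of 9833). The background shares lie at the edge of the first interval and inside the second. The gap between the starts of a pair had a median of 258.5 bp (79 to 481) at the 12 bound members and 131 bp (19 to 500) at the 32 unbound ones, with ranges that overlap. Over all protein-coding genes with a partner the medians were 257 bp for 676 bound and 237 bp for 3459 unbound genes.

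The summit was usually nearer to the neighbour's start site than to the member's own. The member's start was the nearest of any gene at 4 of 14 bound members (MED7, MED17, Polr2F and Taf4, 28.6%, Wilson interval 11.7 to 54.6), while all bound protein-coding genes had their own start nearest in 72.5% of cases (880 of 1214). Where a gene on the other strand also started within 500 bp of the summit, the shares were 2 of 12 members (16.7%, 4.7 to 44.8) and 338 of 666 protein-coding genes (50.8%). At the 10 members where a neighbour was nearer, the summit lay a median of 184 bp (128 to 483) from the member's start and 83 bp (2 to 115) from the neighbour's. These calls rest on the pooled summit. The summits of the replicate peaks compared for the pooled list lay 25 bp apart at Polr2B, 50 bp at MED27 and 121 bp at Polr2J. At each of these genes either replicate peak could decide the call, since the summits fell on different sides of the midpoint. At the rest of the 10 both were nearer to the neighbour. With each peak given only to the gene or genes with the start nearest to its pooled summit, 4 of 70 members were bound (5.71%), below the 6.32% of all protein-coding genes. Which gene of a pair, if either, responds to the bound protein was not measured.

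**Figure D2:**
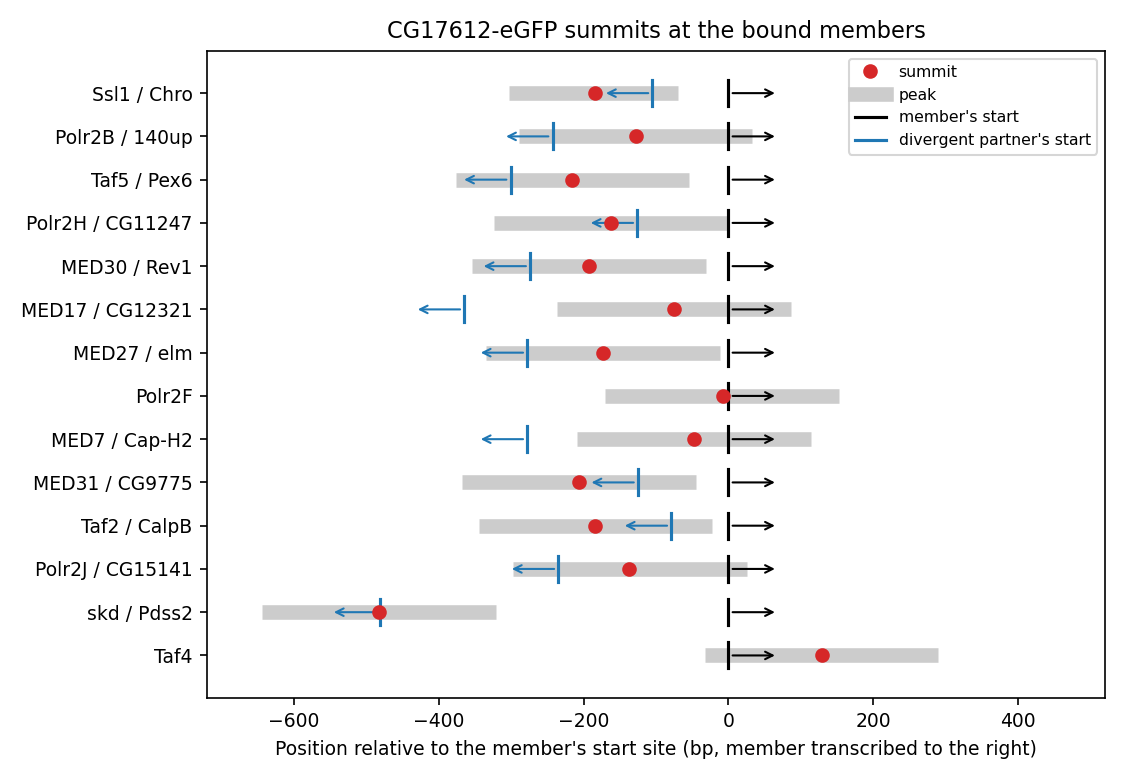
Position of each bound member's peak (grey bar) and summit (red point) in bp relative to the member's start site (black line at 0, transcribed to the right), with the start of the head-to-head partner in blue (transcribed to the left). Of the 14 summits 13 lie upstream of the member's start, and 5 lie past the partner's start, inside the partner gene.

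With respect to the pairs, 7 summits fell between the divergent starts (Polr2B, Taf5, MED30, MED17, MED27, MED7 and Polr2J) and 5 fell past the partner's start (Ssl1, Polr2H, MED31, Taf2 and skd). Of those 5, 4 were in the 5′ UTR of the partner and the one at MED31 was in an intron of the partner. Upstream of the member's start were 13 of 14 summits (92.9%, 68.5 to 98.7), beside 86.4% for all bound protein-coding genes. The exception was Taf4. Within 250 bp of the member's start were 13 of 14, all but skd, beside 78.8%. The members' summits lay a median of 81 bp from the nearest start of any gene, and the 996 peaks of the list that were within 500 bp of any start lay a median of 131.5 bp from it.

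Among the polymerase genes, Polr2B, which encodes the second largest subunit and with Polr2A forms the active centre, had the highest score. Scores are the authors' signal values, their scale is not stated, and they are used here to rank peaks within a list. The peak at 3R:14125501-14125824 scored 210.8 and ranked 246 of 2042, and the overlapping peaks in the own lists of replicates 1 and 2 scored 108.8 and 101.6. Its summit was 128 bp upstream of Polr2B and 115 bp from the start of 140up, in the 243 bp between these genes, so that it was nearly midway. This is the window with the longest unbroken A and T run of all the members, 34 bases.

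Polr2H encodes a subunit common to the nuclear RNA polymerases I, II and III. Its peak (3L:21728608-21728931) scored 159.5, ranked 430, with 64.2 in replicate 1 and 90.37 in replicate 2. The summit was 162 bp upstream of Polr2H and 36 bp inside the 5′ UTR of CG11247. Polr2F encodes another subunit shared by the nuclear polymerases, and it has no head-to-head partner. The Polr2F peak (3R:5371625-5371948) scored 104.1, ranked 905, with 66.41 and 42.9 in replicates 1 and 2, and its summit was 8 bp upstream of the start, the closest of all members. Polr2J, a small subunit of RNA polymerase II that pairs with Polr2C inside the enzyme, had a peak at 2L:17410381-17410704. It scored 93.23, ranked 1108, with 48.85 and 61.67 in replicates 1 and 2, and lay 137 bp from Polr2J and 98 bp from CG15141. Polr2H and Polr2J were higher in replicate 2, and Polr2B and Polr2F in replicate 1.

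Of TFIIH, Ssl1 encodes the p44 subunit, which stimulates the DNA helicase Xpd. Its peak (3L:22878786-22879019) was the strongest of all the members, with a pooled score of 692.6, rank 18, and almost equal replicate scores of 352.4 and 352.6. The summit lay 184 bp upstream of Ssl1 and 79 bp past the start of Chro, in the 5′ UTR of Chro, the gene of the chromodomain protein Chromator. The starts are 105 bp apart. At 234 bp the peak is narrower than the 324 bp of the other 13 members' peaks. The helicase genes Xpd and hay were unbound, with the nearest summits at 24957 and 6072 bp.

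Of TFIID, Taf5 encodes a subunit of the structural core of the complex. Its peak (2R:10879727-10880050) scored 181.4, rank 335, with 101.1 and 78.19 in replicates 1 and 2. It lay in the 301 bp between Taf5, at 216 bp, and Pex6, a peroxisomal ATPase gene, at 85 bp. Taf2, which encodes a large promoter-contacting subunit, had a weaker peak (3L:9888705-9889028) of score 97.57, rank 1033, with 53.69 and 45.71. Its summit lay 184 bp upstream of Taf2 and 105 bp inside the calpain gene CalpB, whose start is 79 bp from that of Taf2.

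Taf4, another core subunit of TFIID, stood apart from the other bound members. Its pooled peak (3L:16113757-16114080) scored 8.727, rank 2007, although the overlapping replicate peaks scored 46.38 and 33.86. The summits of the compared replicate peaks were 337 bp apart, beside 0 to 121 bp at the other 13 members. The pooled score was 0.1088 of the sum of the scores of these compared peaks, and 68 of the 2042 peaks were under 0.2 by that measure. The summit was 129 bp downstream of one of 3 annotated Taf4 start sites, in the 5′ UTR, and 707 bp from the start of the canonical transcript. The peak was not in the authors' less strict pooled list, nor in the thresholded list of either replicate. Without it, 13 of 70 members were bound (18.6%).

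**Figure D3:**
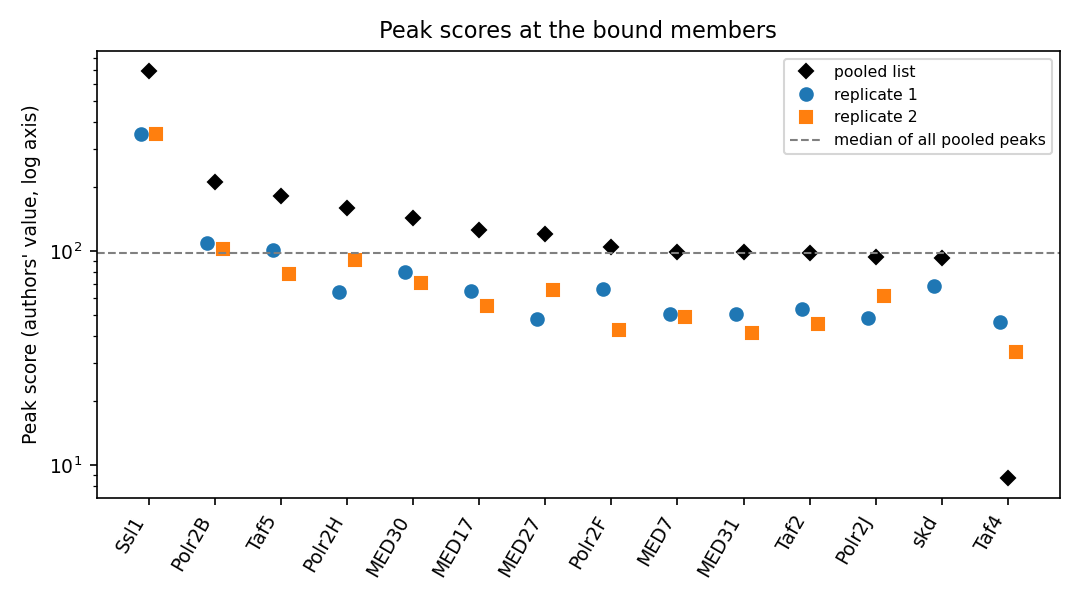
Peak scores (the authors' values, log axis) at the 14 bound members in the pooled list and in each replicate's own list, with the median of all pooled peaks, 98.19, as a dashed line. Ssl1 is highest at 692.6, most others lie between 93.19 and 210.8, the pooled score of Taf4 is 8.727, below both of its replicate scores, and no replicate 2 point is drawn for skd.

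The bound Mediator genes included subunits of the head and middle modules. MED30, a subunit found in metazoan Mediator, had a peak at 3L:654120-654443 of score 141.9, rank 524, with 79.58 and 70.5 in replicates 1 and 2. It lay in the 274 bp between MED30, at 193 bp, and Rev1, a translesion DNA polymerase gene, at 81 bp. MED17 encodes the scaffold of the head module. Its peak (3R:18188835-18189158) scored 125, rank 665, with 65.17 and 55.37, and lay 75 bp upstream of MED17 and 290 bp from CG12321. The peak at MED27 (3R:5654804-5655127) scored 120.4, rank 717, with 47.83 and 65.42, at 173 bp from MED27 and 105 bp from elm.

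The middle module genes MED7 and MED31 had nearly the same pooled score. MED7 (3R:10760918-10761241) scored 99.4, rank 998, with 50.7 and 49.31 in replicates 1 and 2, and its summit was 48 bp upstream of MED7 and 230 bp from Cap-H2, a condensin II subunit gene. MED31 (3R:4641595-4641918) scored 99.3, rank 1004, with 50.65 and 41.4, at 206 bp from the start that MED31 shares with slx1 and 81 bp inside CG9775. In the kinase module, skd, the fly Med13 that links the kinase to Mediator, had a peak at 3L:21027755-21028078 of score 93.19, rank 1109. Its summit lay 2 bp from the start of Pdss2, a gene of coenzyme Q synthesis, and 483 bp from one of 2 skd starts, the member closest to the 500 bp limit. Replicate 1 scored 68.29 there. The own list of replicate 2 had no overlapping peak, and the second compared score in the pooled ranked list was 25.68.

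Over the 14 members the pooled score had a median of 112.3, against 98.19 for all 2042 peaks and 112.3 for the peaks of the 1214 bound protein-coding genes. Replicate 1 scores had a median of 64.68 (46.38 to 352.4) and replicate 2 scores one of 61.67 (33.86 to 352.6, 13 members). Replicate 1 was higher at 9 of these 13 members, and the ratio of replicate 1 to replicate 2 had a median of 1.129, beside 1.103 over 2020 peaks of the list. The 13 leave out skd, whose first and second compared scores were 68.29 and 25.68. At the other members the first and second compared scores equalled those of replicates 1 and 2. The members' peaks were thus of ordinary height among peaks at genes. Read counts are not in the lists, so the depth behind each score is unknown.

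Taken one at a time, the replicates called fewer members. The thresholded list of replicate 1 alone marked 10 of 70 (14.3%, against 6.56% of protein-coding genes), and that of replicate 2 alone also marked 10 (14.3%, against 5.87%). Both lists held Ssl1, Polr2B, Polr2F, Polr2H, Taf5, MED17 and MED30. MED27, MED31 and skd were in replicate 1 alone, and MED7, Taf2 and Polr2J in replicate 2 alone. Taf4 was in neither.

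The 56 unbound members included Polr2A, which encodes the largest subunit of the polymerase, with its nearest summit at 41801 bp, and Tbp, at 13221 bp. Other unbound polymerase genes were Polr2C, Polr2D, Polr2E, Polr2G, Polr2I, Polr2K, Polr2L and Polr2M. In TFIID they were Taf1, Taf3, Taf6, Taf7, Taf8, Taf9, Taf10, Taf10b, Taf11, Taf12, Taf12L and Taf13. Of these Taf10 and Taf10b lie head to head with each other, 45 bp apart, with the nearest summit 8054 bp from Taf10b. The unbound Mediator genes were MED1, MED4, MED6, MED8 to MED11, MED14, MED15, MED16, MED18 to MED26 and MED28, and in the kinase module Cdk8, CycC and kto. The remaining ones were the 9 TfII genes, hay and Xpd. The closest unbound member was Polr2I, with a summit at 1053 bp, followed by Taf12 at 1415 bp and TfIIEalpha at 1522 bp, so no member lay just outside the 500 bp limit. The median over the 56 was 12435 bp, and for 31 of them the nearest summit was beyond 10000 bp.

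Before thresholding the pooled ranked list held 144329 peaks, so most genes of any kind had a summit near a start site. How often places away from start sites had one was not measured, so these shares do not show weak binding at promoters. In the ranked list before thresholding, 54 of 70 members had a peak summit within 500 bp of a start (77.1%), against 79.3% of all protein-coding genes. Of the 56 unbound members 40 had one (71.4%, beside 77.3% of unbound protein-coding genes). Reproducibility in that list is given as the −log10 of the global IDR, where higher is more reproducible and the thresholded peaks have at least 2. The 40 had a median of 0.297 (0.0785 to 1.67). The highest was TfIIA-L, the large TFIIA subunit gene, at 1.67. It had 2 ranked peaks there with a highest score of 74.86, which may belong to the other peak. Next were Cdk8 at 1.33 (score 55.14) and Polr2C at 1.11 (score 44.92). All were named after their values were seen. TfIIA-L passed in the less strict pooled list. The bound members ran from 2.1 at skd to 5 at Ssl1.

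**Figure D4:**
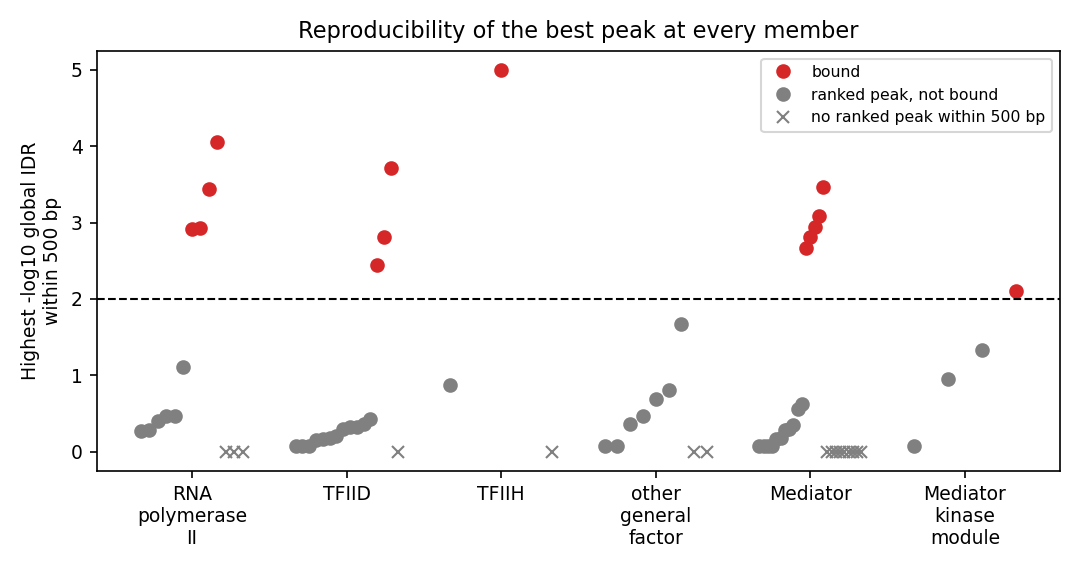
Highest −log10 global IDR of any ranked peak with its summit within 500 bp of a start site, for each of the 70 members by complex, with the threshold at 2 as a dashed line and crosses at 0 for the 16 members with no ranked peak there. Bound members lie from 2.1 to 5, and 3 unbound members lie above 1.

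Most bound members lay on chromosome 3. That chromosome (arms 3L and 3R) held 42 of the members and 12 of the bound ones (28.6%), while the other arms held 28 members and 2 bound ones, Taf5 on 2R and Polr2J on 2L (7.14%). Over all protein-coding genes the shares were 9.24% and 8.26%. None of the 6 members on X was bound, which allows up to 50%, and neither were the 2 on chromosome 4.

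Base composition dipped in GC at the summits. The 101 bp windows around the 14 members' summits had a median GC content of 30.2% (12.9 to 56.4), and the flank windows of the same size centred 300 bp to either side had 46.5% (21.8 to 66.3, 28 windows). All peaks of the list showed the same order with a smaller gap, 34.7% against 43.6%, and the 996 peaks near start sites had 33.7% against 44.6%. The summit window was lower than both flanks at 10 of 14 members (71.4%, beside 57.7% of all peaks and 59.2% of those near starts). Polr2B had the lowest GC content at 12.9%. Taf2 and Polr2J had 17.8% each, and MED17 had 20.8%. The exceptions, above 40%, were skd at 56.4%, and Polr2F and Taf4 at 50.5% each. The flanks of Ssl1 were as low as its summit, at 31.7% and 24.8% beside 31.7%. The longest run of A and T had a median of 12.5 bases in the members' windows, from 4 at Polr2F to 34 at Polr2B, against 9 over all peaks and 10 over those near starts.

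**Figure D5:**
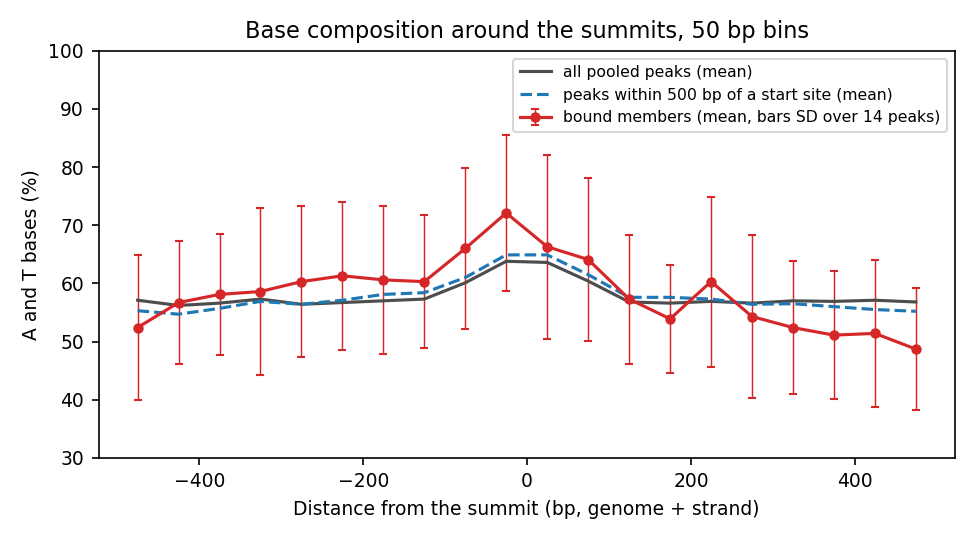
Mean percentage of A and T bases in 50 bp bins from 500 bp before to 500 bp after the summit, along the genome's plus strand, for the 14 members (red, bars are the SD over peaks), all 2042 peaks (black) and the 996 peaks near start sites (dashed blue). The members reach 72.1% ± 13.4 (SD, 14 peaks) in the bin before the summit, where all peaks reach 63.8% and peaks near starts 64.9%. The SD is the spread over single peaks, not the error of the members' mean, and the difference was not tested.

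Most of the promoter words searched were in none of the members' windows. Searched on both strands, the TATA box word TATAAA was in 4 of 14 members' windows (28.6%: Taf5, Polr2H, MED17 and MED27), in 19.6% of all peak windows and in 22.8% of those near start sites. The insulator protein BEAF-32 is known to bind CGATA, which was in 2 windows (14.3%: Ssl1 and MED27), beside 14.4% and 16.2%. The other words were in 0 of 14, which allows up to 21.4%. These were the DNA replication-related element TATCGATA, which contains the BEAF-32 word (1.13% of all peaks), core promoter motif 1, GGTCACACT (0.343%), and the E-box CAGCTG (3.53%). They further included the Su(Hw) core GCATACTTT (3.53%), the Zelda word CAGGTAG (0.343%), the GAGA word GAGAGAG (0.686%) and the initiator word TCAGTT (6.42%). A match is only a run of letters and was not tested for binding of the named factor.

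Other genes of the transcription machinery were bound too. In 7 lists of related genes, 15 of 86 were bound (17.4%), beside 8.69% of all protein-coding genes. A head-to-head partner was present at 14 of these 15 and at 50 of the 86. So 14 of the 50 related genes with such a partner were bound, against 676 of 4135 protein-coding genes with one (16.3%). Of 28 genes for elongation and promoter-proximal pausing 7 were bound (25%). Among them were 3 subunit genes of the pausing complex NELF, TH1 (score 184.6), Nelf-E (154.5) and Nelf-A (88.16), the kinase gene Cdk12 (162.1), Ctr9 of the PAF1 complex (90), the elongation factor gene Spt6 (88.57) and EloA (73.91). Of the other 7 TFIIH genes only mrn, the p52 subunit gene (170.9), was bound, a share of 14.3%. SAGA, a histone-modifying coactivator, had its acetyltransferase gene Gcn5 (160.6) and wda (84.39) among 17, a share of 11.8%. Integrator, which cleaves nascent transcripts, had IntS11 (138.1), IntS9 (90.38) and IntS6 (86.07) among 11, a share of 27.3%. Polr3E, a subunit gene of RNA polymerase III, was bound as well (71.66). None of 7 RNA polymerase I genes (up to 42.9%) or of 6 TBP and TAF relatives (up to 50%) was bound. In replicates 1 and 2 the NELF genes scored 98.04 and 92.19 at TH1, 117.5 and 28.15 at Nelf-E, and 58.2 and 38.37 at Nelf-A. The summit was nearest to the gene's own start at 7 of the 15.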

How the data were processed

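Per the deposited description files, the peak lists are on dm6 and come from the alignments of the samples, pooled or single, with a further alignment common to all. No source used here names the aligner or the peak caller. The deposited lists hold a peak score with no stated scale and, in the ranked lists, the −log10 of the global IDR, both made by the authors. Replicate scores are those of the highest peak overlapping the pooled peak in each replicate's ranked list, and the compared scores and summits are those of the pooled ranked list, whose columns carry no replicate name.

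Start sites came from Ensembl release 115 of BDGP 6.54 (18277 genes, 24111 start sites), and sequences from the Release 6 genome. The last peak of each arm lay within the length of that arm. Distances, shares with 95% Wilson intervals and limits of 3 counts for a share of 0 were computed with Python 3.11.15, pandas 2.3.3, NumPy 2.4.6 and SciPy 1.17.1, and figures with matplotlib 3.10.9. The assignment of summits to genes was tested on simulated data. No test of significance was made, since there is 1 group of 2 samples and genes are not replicates. All bound members were named, and unbound ones by complex. Bound related genes were named, except 1 result that is not reported here. The members, the related lists (3 of their symbols matched no gene) and the alternatives were chosen with earlier results of these data known. The alternatives were other lists, distances, start sites and rules of assignment. Peaks off the assembled arms were left out.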

Additional observations from a re-analysis of the deposited data

How the results depend on the processing

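Against 14 bound members in the conservative list, the less strict list gave 14, of which 13 were shared, and the other settings gave 10 to 14, except for 2 stricter assignments. Requiring the start site inside the peak left 6 bound members (8.57%, against 4.36% of all protein-coding genes, median score 101.8), and at 2 of these the divergent partner's start was inside the peak as well. Giving each peak only to the start nearest to its pooled summit left 4 (5.71%, against 6.32% of all protein-coding genes), 2 of them with a divergent partner (median score 101.8). In that last setting the members' share was below the background. With replicate 2 or replicate 1 left out, 10 members were bound each time and the median score was 66.09 to 67.35, on the scale of single replicates. The median score was 133.4 among peaks at or above the list's median, and 120.4 within 250 bp, with canonical starts only, and without peaks scoring under 0.2 of their replicate scores, an alternative chosen after seeing the data. The last left 13 bound members. MED17 and Polr2F were bound in all 10 alternatives, and Taf4 in 4. In windows of 100 bp on each side CGATA was in 42.9% of members' windows, beside 26.1% of all peaks and 29.9% of those near starts. Promoters were taken from 250 bp before to 50 bp after the start. The bound members' promoters stand beside the canonical promoters of 13967 protein-coding genes, bound or not. CGATA was in 50% of these members' promoters, beside 46.9%. TATAAA was in 50% of the wider windows, beside 32.8% of all peaks and 36.3% of those near starts, and in 57.1% of members' promoters, beside 45.3%. Some words absent from the narrow windows appeared at 1 member each in the wider ones (TATCGATA and the E-box). In promoters TATCGATA was at 2 members (14.3%, beside 8.94%), and core promoter motif 1, the E-box and the initiator word were at 1 each (7.14%, beside 5.86%, 17.9% and 26.3%). No paired analysis was possible because there is 1 group and no test. Reads per peak are not in the lists, so a gene without a summit is not shown to be free of the protein.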
